A study of Drosophila melanogaster with 52 samples.

Results

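The genes described here are 42 homeobox genes of brain, mesoderm and body patterning in Drosophila melanogaster, chosen by symbol and without the Hox genes and the genes of eye determination. All 42 symbols were found among the 16502 genes of the deposited expression table. The values come from poly(A) RNA of imaginal discs and brains dissected from larvae in the third instar that were raised at 25 °C, in 3 wild-type libraries (WT), 4 libraries labelled SppsKO and 3 labelled PhoKO. Spps and Pho are DNA-binding proteins that recruit Polycomb group complexes, and the study compared wild type with their mutants. Per the series' design text, the Spps mutants lacked maternal and zygotic product, while the pho mutants lacked only zygotic product, so that maternal Pho was not removed by the genotype. The labels name no allele and no strain for the RNA libraries, nor do they say whether each library had its own cross or dissection. P-values thus reflect only how far libraries of a group differ, and some of that spread may be technical.

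The homeodomain is a helical DNA-binding domain shared by transcription factors that give cells their position or type. Apart from the Hox genes the family includes segmentation and head-patterning genes of the early embryo and NK-class genes of mesoderm and neuroectoderm. It also includes paired-like, POU and LIM factors of single neuron types, and the TALE cofactors that bind DNA together with Hox proteins. Many of these genes are classical Polycomb targets, which are kept off in most cells by Polycomb complexes recruited to nearby DNA elements, so loss of a recruiter raises the question of whether silent homeobox genes come on.

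Both targeted genes were low in the libraries labelled as their mutants. Spps stood between 12.2 and 12.9 FPKM (fragments per kilobase of transcript, scaled to the mapped fragments of the library) in WT and between 0.877 and 1.04 in SppsKO, and pho between 53.7 and 67.8 in WT and between 15.3 and 18.7 in PhoKO. The total depth is unknown. From the size of the steps among values under 0.3 FPKM, and with WT 1 as 100%, depth ranged from 59.8% in WT 3 and 63.6% in PhoKO 1 to 106% in SppsKO 1 and SppsKO 3; WT 3 and PhoKO 1 are called the shallow libraries below. Markers of the labelled tissue were present: 10 of 11 neuronal (1 symbol was not matched), 7 of 7 neuroblast, 8 of 8 glial and 9 of 9 disc epithelium markers passed the filter on low values. The disc list includes hth, which is also a gene of the list described here. Markers of other larval tissues were present too, at uneven levels. Salivary gland sums ran from 821 to 6350 FPKM in WT, 291 to 3030 in SppsKO and 87.6 to 1470 in PhoKO. Fat body sums ran from 1020 to 4520, 1070 to 1740 and 575 to 3260 FPKM in the same order. Because the tissue is a mixture, fewer cells of a type and less RNA per cell cannot be told apart in any value below.

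In wild type the 42 genes spanned from near 0 to over 100 FPKM, a unit that is per transcript length and so allows levels of different genes to be compared. By WT mean, 10 genes lay under 1 FPKM, 11 between 1 and 5, 13 between 5 and 20, 7 between 20 and 100, and exd alone above 100. A WT mean under 1 FPKM was found for 42.1% of all genes. The 5 highest were the cofactor genes exd and hth, the zinc-finger homeobox gene zfh2, vvl and scro. The 32 genes above 1 FPKM were also those that passed the filter of 1 FPKM in at least 3 libraries, and among them the coefficient of variation over the WT libraries ranged from 1.72% for oc to 16.9% for bsh, with a median of 7.76% against 6.56% for all 9748 tested genes.

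**Figure D1:**
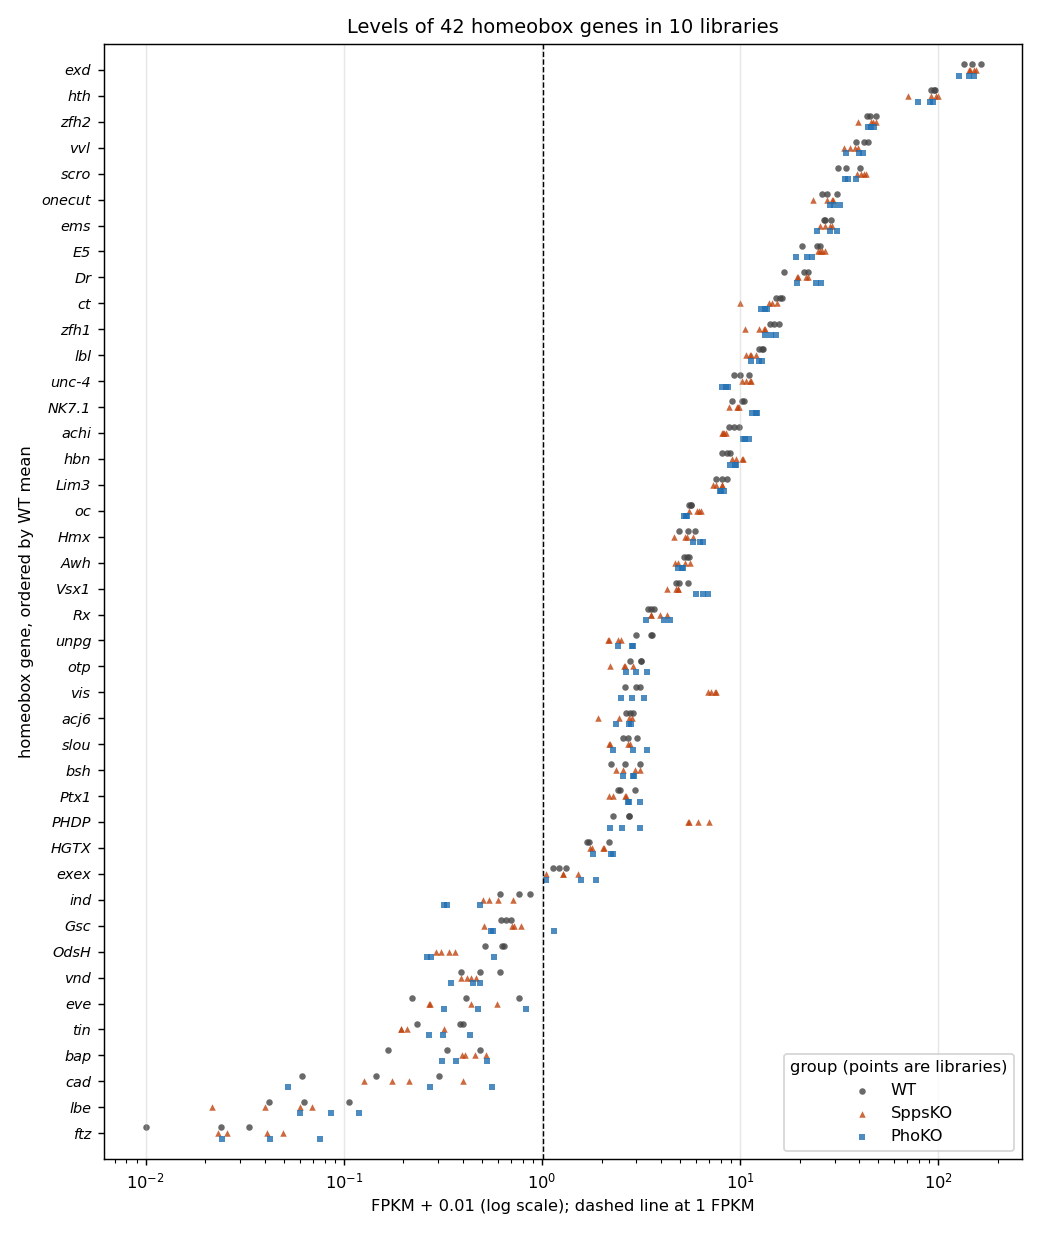
FPKM of the 42 homeobox genes (log axis, with 0.01 added so that a value of 0 can be drawn), ordered by WT mean, with 1 point per library and a dashed line at 1 FPKM. The 10 lowest genes lie left of the line in all libraries except Gsc in PhoKO 1, at 1.14 FPKM, and the SppsKO points of vis and PHDP stand to the right of the other groups.

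Of the 42 genes, 10 were silent in wild type, taken here as under 1 FPKM in every WT library: the pair-rule genes eve and ftz, the posterior patterning gene cad, the mesodermal genes tin, bap and lbe, the neuroectodermal genes vnd and ind, and the paired-like genes Gsc and OdsH. This is 23.8% of the list, beside 40.4% of all genes in the table. In SppsKO all 10 stayed under 1 FPKM in every library. In PhoKO 9 of 10 did, and the exception was Gsc in a single library. With a threshold of 0.5 FPKM in place of 1, 5 genes were silent in WT, of which 4 stayed so in SppsKO and 3 in PhoKO. These crossings were small: bap reached 0.477 FPKM in WT, 0.511 in SppsKO and 0.52 in PhoKO, and cad 0.548 in PhoKO 1. The share of all genes that crossed 0.5 FPKM is not given here. Of the 5280 genes of the table that were silent in WT and above 0 in any library, 4.09% reached 1 FPKM in any SppsKO library and 6.29% in any PhoKO library, so that staying silent was also what most other silent genes did. In the other direction, 0 of the 32 genes that were not silent in WT became silent in either mutant, beside 3.8% in SppsKO and 2.65% in PhoKO of the 9840 genes of the table that were not silent in WT.

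The pair-rule and posterior genes ftz, cad and eve were all silent. The gene ftz, the lowest of the list by WT mean, which patterns alternate segments, was listed at 0 in WT 2, at 0.014 and 0.0233 FPKM in WT 1 and WT 3, and had its highest value at 0.0657 in PhoKO 1. The gene cad, which specifies the posterior end and later the hindgut, ranged from 0.0515 to 0.291 FPKM in WT, from 0.117 to 0.389 in SppsKO and from 0.0422 to 0.548 in PhoKO. The gene eve, a pair-rule gene that later marks identified neurons and heart cells, ranged from 0.211 to 0.761, from 0.26 to 0.582 and from 0.312 to 0.823 FPKM in the same order. For these 3 genes the groups overlapped.

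Mesodermal NK-class genes were silent except for lbl and slou. The gene tin, needed for heart and dorsal mesoderm, stood at 0.39, 0.378 and 0.225 FPKM in WT 1 to 3, at 0.184, 0.198, 0.311 and 0.184 in SppsKO 1 to 4, and at 0.423, 0.307 and 0.259 in PhoKO 1 to 3. Its neighbour bap, needed for visceral mesoderm, stood at 0.158, 0.477 and 0.321 in WT, at 0.397, 0.386, 0.511 and 0.449 in SppsKO, and at 0.357, 0.52 and 0.302 in PhoKO. The groups overlapped for both genes. The ladybird genes lbe and lbl, which specify muscle and heart cell identity, lie next to each other and differed widely in level. In WT lbe stood at 0.032, 0.0967 and 0.0532 FPKM and lbl at 12.9, 12.4 and 13.1, so that the WT mean of lbl was 211 times that of lbe. In the mutants lbe stayed between 0.0117 and 0.0593 FPKM in SppsKO and between 0.0501 and 0.11 in PhoKO. The level of lbl was 10.7, 11.3, 11.2 and 12 FPKM in SppsKO, below every WT library, and 12.4, 11.4 and 12.9 in PhoKO. The difference of lbl between SppsKO and WT did not pass the test (log2 fold change -0.17, SE 0.05, limma adjusted p = 0.0814). The muscle founder gene slou ranged from 2.18 to 3.38 FPKM over all libraries and its groups overlapped.

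The columnar genes, which divide the embryonic neuroectoderm into bands along the dorsoventral axis, were at different levels. The ventral gene vnd was silent, between 0.339 and 0.604 FPKM over all libraries, whereas Dr, the dorsal gene, ranged from 16.7 to 25.7 and was called, higher in PhoKO than in SppsKO, only in the fit without both shallow libraries. The intermediate gene ind had the highest WT mean of the silent genes, 0.74 FPKM. It stood at 0.607, 0.754 and 0.859 FPKM in WT, at 0.53, 0.593, 0.704 and 0.495 in SppsKO, and at 0.476, 0.311 and 0.322 in PhoKO. All PhoKO values lay below all WT values, with a PhoKO mean 0.5 times the WT mean. The gene was below the filter and so was not tested in the main fit. In the fit of all genes without a filter it was called lower in PhoKO (log2 fold change -0.34, SE 0.08, limma adjusted p = 0.0451) and was not called in SppsKO (-0.14, SE 0.08, limma adjusted p = 0.388). In the same fit NK7.1 was not called in PhoKO (limma adjusted p = 0.0549). The NK2-class brain gene scro, by contrast, was among the 5 highest, at 31.1, 34.2 and 40.5 FPKM in WT, 38.9, 40.8, 42.3 and 43 in SppsKO, and 34, 35 and 38.6 in PhoKO. It was not called in any comparison, but was called higher in SppsKO without WT 3 or both shallow libraries, and lower in PhoKO than in SppsKO without WT 3 or with only the compared groups fitted.

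The remaining silent genes were paired-like. Gsc, a gene of head and foregut, stood at 0.687, 0.61 and 0.648 FPKM in WT, at 0.716, 0.779, 0.695 and 0.502 in SppsKO, and at 1.14, 0.556 and 0.542 in PhoKO, so that its crossing of 1 FPKM rested on PhoKO 1, a shallow library. OdsH, known in Drosophila for a role in hybrid male sterility, stood at 0.62, 0.504 and 0.634 FPKM in WT, at 0.283, 0.331, 0.301 and 0.356 in SppsKO, and at 0.564, 0.266 and 0.253 in PhoKO. Its SppsKO values lay below every WT value, and the difference did not pass in the fit without a filter (log2 fold change -0.27, SE 0.08, limma adjusted p = 0.0991). Of the 10 silent genes, ind in PhoKO was the only call in that fit over the 3 comparisons. That fit covered 15120 genes and called 964 of them in PhoKO versus WT, 487 of these lower. It called 761 in SppsKO versus WT and 1381 in PhoKO versus SppsKO. Whether the call of ind holds with a library left out is not given here. Just above the threshold, exex, a gene of motor neuron identity, had a WT mean of 1.22 FPKM, and HGTX, an Nkx6 relative that acts in motor neurons, had 1.86. The level of exex was 1.32, 1.21 and 1.13 FPKM in WT, 1.27, 1.27, 1.51 and 1.04 in SppsKO, and 1.86, 1.04 and 1.57 in PhoKO. The level of HGTX was 2.18, 1.68 and 1.72 in WT, 2.05, 1.79, 1.74 and 2.02 in SppsKO, and 2.23, 2.27 and 1.8 in PhoKO. For both genes the groups overlapped.

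**Figure D2:**
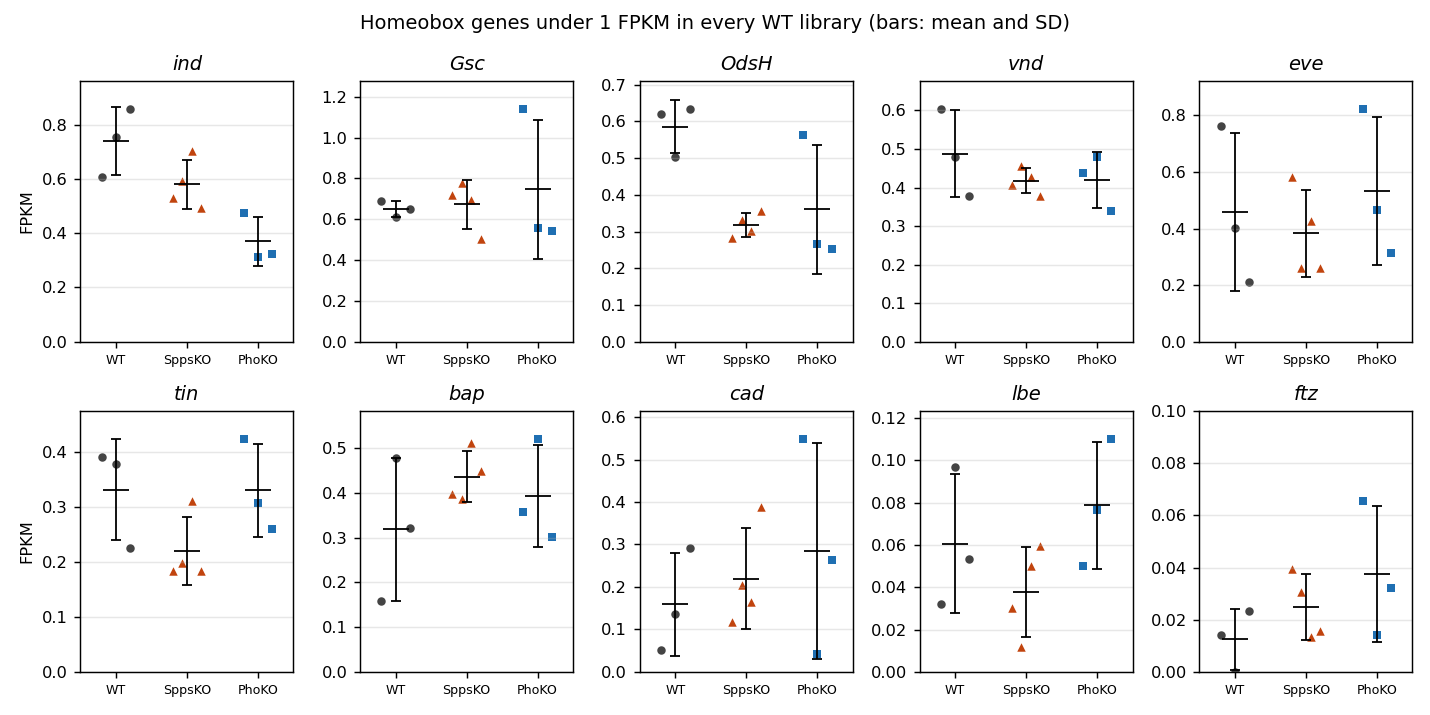
FPKM in each library of the 10 homeobox genes that were under 1 FPKM in every WT library, with mean and SD as bars and a separate axis for each gene. All groups overlap except for ind in PhoKO, lower than WT and SppsKO, and OdsH in SppsKO, lower than WT; Gsc in PhoKO 1 is the only point above 1 FPKM.

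Among the 32 tested genes, 3 changed in SppsKO: PHDP and vis rose and unpg fell. This share of 9.38% was near that of all 9748 tested genes, of which 8.18% were called in SppsKO, 3.92% higher and 4.26% lower. The test was limma on log2(FPKM + 1) over all 10 libraries, with p-values adjusted by the Benjamini-Hochberg method over all tested genes and a call at an adjusted p under 0.05. The median log2 fold change was -0.043 for the list and 0.001 for all tested genes, and the median absolute change was 0.088 and 0.087. For the 29 tested genes that were not called, 95% intervals of the log2 fold change reached at most down to -0.49 (ct) and up to 0.41 (scro), so changes within these bounds are not resolved.

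The largest rise was that of vis, a TALE-class gene related to the vertebrate TGIF genes and required with its tandem copy achi for sperm development. It stood at 3.11, 2.98 and 2.63 FPKM in WT, at 7.48, 7.58, 6.92 and 7.15 in SppsKO, and at 2.49, 3.27 and 2.85 in PhoKO. Every SppsKO library was above every library of the other groups. The SppsKO mean of 7.29 ± 0.302 FPKM (SD, n = 4) was 2.51 times the WT mean of 2.91 ± 0.248 (SD, n = 3). Its log2 fold change was 1.09 (SE 0.08, limma adjusted p = 4.16e-05). In PhoKO the log2 fold change of vis was -0.02 (95% interval -0.22 to 0.18). On this scale the change of a gene at a few FPKM is understated, and it was 1.3 with a pseudocount of 0.1 and 0.64 with a pseudocount of 5.

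The tandem copy achi, by contrast with vis, was not called against WT in either mutant. It stood at 9.3, 8.77 and 9.84 FPKM in WT, at 8.47, 8.14, 8.15 and 8.3 in SppsKO, and at 11.1, 10.6 and 10.4 in PhoKO, so that the SppsKO libraries were the lowest and the PhoKO libraries the highest, with no overlap between the 3 groups. Neither change against WT passed the test (log2 fold change -0.15 in SppsKO, limma adjusted p = 0.0957, and 0.18 in PhoKO, limma adjusted p = 0.0617, called under quantile normalization, without WT 3, or without the trend and robust options), while the direct difference between the mutants did (0.33, SE 0.05, limma adjusted p = 0.00226). Because the copies are near-identical, fragments may be split between them, and the values of each are uncertain. The sum of both genes was 12.2 ± 0.399 FPKM in WT (SD, n = 3), 15.6 ± 0.377 in SppsKO (SD, n = 4) and 13.5 ± 0.327 in PhoKO (SD, n = 3), again with no overlap between groups. The part of this sum assigned to vis was 23.8% in WT, 46.8% in SppsKO and 21.2% in PhoKO.

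PHDP, which encodes a paired-like homeodomain protein, showed the same pattern over the groups. It stood at 2.74, 2.27 and 2.75 FPKM in WT, at 5.49, 5.48, 6.15 and 6.99 in SppsKO, and at 2.54, 3.1 and 2.19 in PhoKO. All SppsKO values exceeded all others, and the SppsKO mean of 6.02 ± 0.715 FPKM (SD, n = 4) was 2.33 times the WT mean of 2.59 ± 0.276 (SD, n = 3). The log2 fold change was 0.97 (SE 0.11, limma adjusted p = 0.000641) in SppsKO and 0 (95% interval -0.26 to 0.27) in PhoKO. With a pseudocount of 5 the SppsKO value was 0.54. In the gene order of the Release 6 assembly, the nearest protein-coding genes on the 2 sides of PHDP were CG4882 and CG5597, and neither was called in SppsKO (log2 fold changes 0.08 and -0.19).

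The gene that fell was unpg, known for its role in a tracheal branch that serves the brain and in brain patterning. It stood at 3.57, 3.54 and 2.97 FPKM in WT, at 2.17, 2.15, 2.49 and 2.4 in SppsKO, and at 2.86, 2.85 and 2.41 in PhoKO. Both mutants lay below WT without overlap, and the SppsKO mean was 0.685 times and the PhoKO mean 0.806 times the WT mean. The log2 fold change was -0.40 in SppsKO (SE 0.09, limma adjusted p = 0.0217) and -0.23 in PhoKO, where it was not called (SE 0.09, limma adjusted p = 0.165). The SppsKO call was lost without WT 1, WT 2, SppsKO 1 or SppsKO 2 (adjusted p between 0.0599 and 0.0861) and under quantile normalization (log2 fold change -0.21, adjusted p = 0.177). Under that normalization the calls of the list in SppsKO were 4 higher and 0 lower. The calls over all 9748 tested genes also moved upward, to 625 higher and 307 lower, against 382 and 415 in the main fit. The neighbour of unpg, CG8026, moved the other way from unpg. Its log2 fold changes were 0.19 in SppsKO (limma adjusted p = 0.0338) and 0.22 in PhoKO (limma adjusted p = 0.0203).

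Markers of blood cells and of the ring gland also differed in SppsKO. Of 8 hemocyte markers 6 were called lower and 0 higher, beside 4.26% of all tested genes called lower. Their summed level was 163 to 252 FPKM in WT and 69.7 to 96.6 in SppsKO. Of 6 ring gland markers 3 were called lower, with overlapping sums of 292 to 324 and 236 to 298 FPKM. No marker of these lists was under 1 FPKM in every library. Muscle marker sums were also lower, at 400 to 511 FPKM in SppsKO against 581 to 614 in WT, with 0 of 7 tested markers called. The part of these cells in the changes of vis, PHDP and unpg was not tested.

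**Figure D3:**
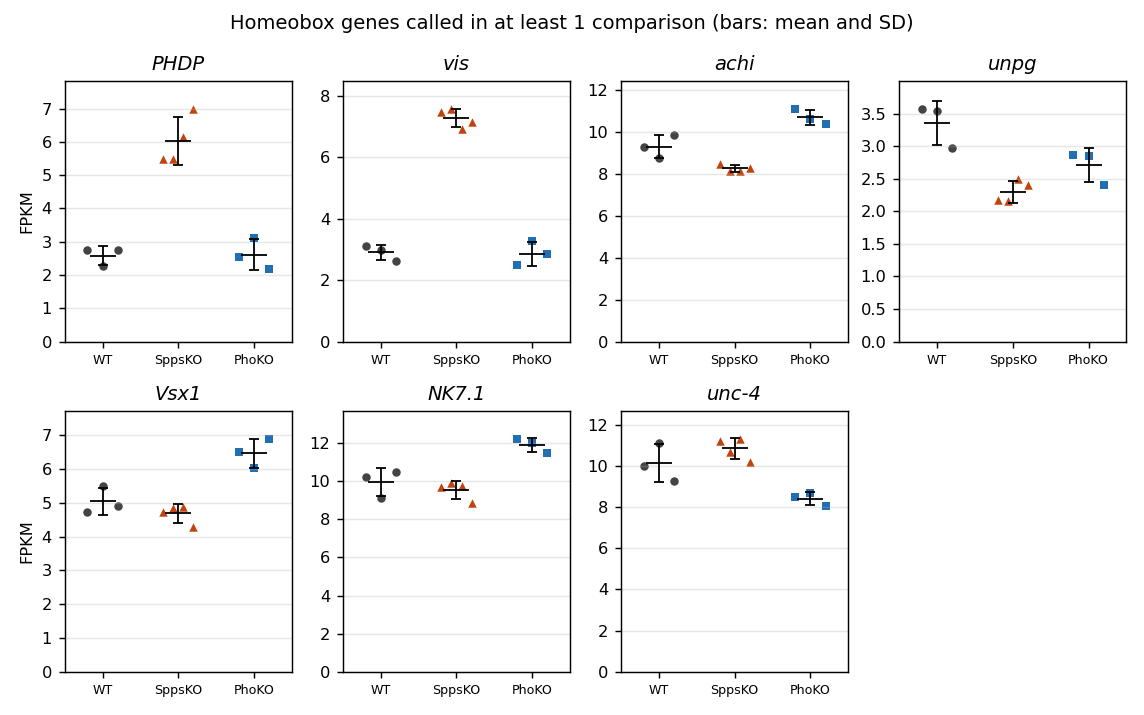
FPKM in each library of the 7 homeobox genes called in at least 1 of the 3 comparisons, with mean and SD as bars and axes that start at 0. The SppsKO libraries of vis and PHDP lie above 5 FPKM and all other libraries of these genes below 3.5, while achi, Vsx1 and NK7.1 are highest and unc-4 is lowest in PhoKO.

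In PhoKO, 2 of the 32 tested genes changed against WT, Vsx1 and NK7.1, and both rose. This share of 6.25% lay below that of all tested genes, of which 9.66% were called in PhoKO, 4.59% higher and 5.08% lower. By limma 0 genes of the list were called lower, and at an unadjusted p under 0.05 there were 2 lower, unc-4 and unpg, beside 12.5% of all tested genes. The median log2 fold change was 0.003 for the list and -0.002 for all tested genes, and 96.9% of the list but 84.8% of all tested genes changed by less than 0.3 in either direction. Intervals of the 30 genes that were not called lay between -0.51 (ct) and 0.47 (Dr).

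Vsx1, a visual system homeobox gene that marks part of the neuroepithelium of the optic lobe, stood at 4.73, 5.48 and 4.9 FPKM in WT, at 4.74, 4.84, 4.87 and 4.28 in SppsKO, and at 6.49, 6.02 and 6.88 in PhoKO. All PhoKO libraries were above all others, with a mean 1.28 times that of WT and a log2 fold change of 0.31 (SE 0.08, limma adjusted p = 0.0372). NK7.1, an NK-class gene, stood at 10.2, 9.13 and 10.5 FPKM in WT, at 9.67, 9.92, 9.73 and 8.84 in SppsKO, and at 12.2, 12 and 11.5 in PhoKO. Its PhoKO libraries were likewise the highest, with a mean 1.2 times that of WT and a log2 fold change of 0.24 (SE 0.06, limma adjusted p = 0.0428).

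Both calls against WT were close to the threshold. The call of Vsx1 was lost without any single library other than WT 2 and SppsKO 4 (adjusted p between 0.0526 and 0.123), and that of NK7.1 without any other than WT 3 and SppsKO 4 (adjusted p between 0.0657 and 0.117). Without SppsKO 4, unc-4 and ct were called lower in addition, and without WT 3 unc-4 was. Without both shallow libraries neither Vsx1 nor NK7.1 was called (adjusted p = 0.145 and 0.089). Of 8 glial markers 6 were called higher in PhoKO, and of 7 neuroblast markers 3 were, beside 4.59% of all tested genes. Glial sums were 256 to 265 FPKM in WT and 308 to 322 in PhoKO, and neuroblast sums 142 to 149 and 156 to 157. No glial or neuroblast marker was under 1 FPKM in every library. The part of these cells in the changes of Vsx1 and NK7.1 was not tested.

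The direct comparison of the mutants, which does not use the WT libraries as a baseline, called 6 of the 32 genes. This is 18.8% of the list, beside 14.4% of all tested genes, with 7.24% called in favour of PhoKO and 7.12% in favour of SppsKO. Higher in PhoKO were Vsx1 (log2 fold change 0.39, SE 0.07, limma adjusted p = 0.00689), achi and NK7.1 (0.29, SE 0.06, limma adjusted p = 0.0106). Lower in PhoKO were vis (-1.10, SE 0.08, limma adjusted p = 3.98e-05), PHDP (-0.96, SE 0.11, limma adjusted p = 0.000548) and unc-4. The last, which controls the identity of postmitotic neurons, stood at 10, 11.1 and 9.29 FPKM in WT, at 11.2, 10.7, 11.3 and 10.2 in SppsKO, and at 8.49, 8.7 and 8.06 in PhoKO. All PhoKO libraries of unc-4 lay below all others, with a log2 fold change of -0.33 against SppsKO (SE 0.06, limma adjusted p = 0.00857) and of -0.24 against WT, which was not called (SE 0.07, limma adjusted p = 0.056). All 6 calls of the direct comparison were kept when any single library was left out. Its neighbour OdsH, 17.3 times lower than unc-4 by WT mean, is described above among the silent genes.

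**Figure D4:**
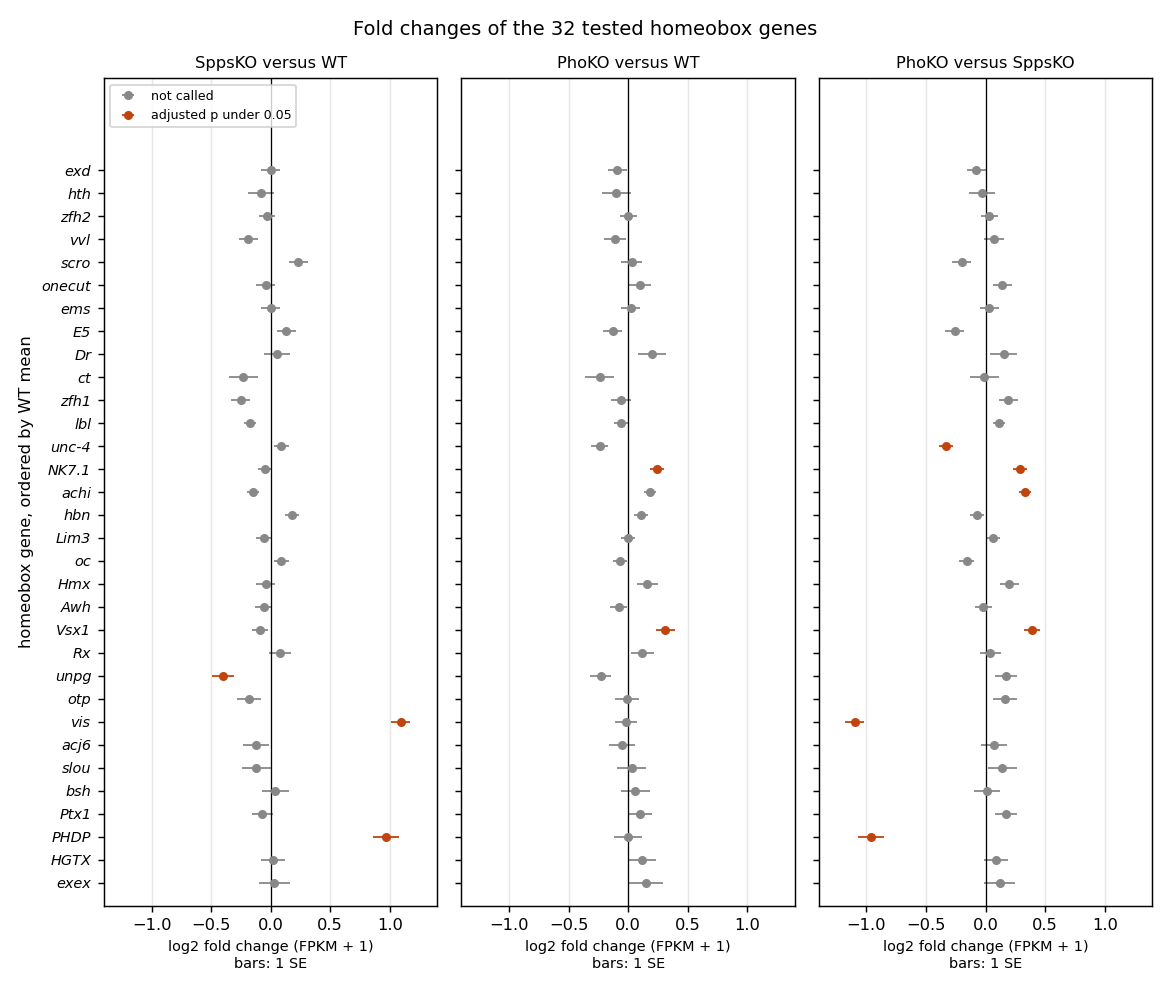
Log2 fold changes on the FPKM + 1 scale of the 32 tested homeobox genes, ordered by WT mean, in the 3 comparisons, with bars of 1 SE. Called genes are coloured: vis and PHDP stand near 1 in SppsKO versus WT and near -1 in PhoKO versus SppsKO, and no gene exceeds 0.31 in either direction in PhoKO versus WT.

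Genes at high levels, exd, hth, zfh2 and vvl, did not pass the test in either mutant. The TALE-class genes exd and hth encode partners of Hox proteins that also pattern the proximal parts of appendages. The level of exd was 148, 164 and 135 FPKM in WT, 156, 143, 144 and 152 in SppsKO, and 127, 143 and 151 in PhoKO. The level of hth was 92, 96.3 and 95.3 in WT, 100, 97.7, 92.3 and 70.7 in SppsKO, and 78.8, 94.3 and 91.2 in PhoKO. The groups overlapped for both, and log2 fold changes were between -0.10 and 0 against WT. The zinc-finger homeobox gene zfh2, which acts in the proximal wing, was 43.9, 45.4 and 48.5 FPKM in WT, 46.7, 45.9, 48.3 and 39.3 in SppsKO, and 44.5, 47.6 and 45.9 in PhoKO. The POU-class gene vvl, of trachea, wing veins and neurons, was 42.4, 44.5 and 38.4 in WT, 38, 35.7, 39.4 and 33.5 in SppsKO, and 34.3, 41.9 and 39.7 in PhoKO. These groups overlapped as well. In SppsKO the log2 fold change of zfh1, a gene of mesoderm and muscle progenitors, was -0.25 (SE 0.08, limma adjusted p = 0.0769), with every SppsKO library, at 10.6 to 13.3 FPKM, below every WT library, at 14.2 to 15.8.

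The head genes ems and oc, and E5 beside ems, were not called in any of the 3 comparisons. The neighbours ems and E5, of which ems patterns the anterior head and brain, were close in WT, with means of 27.4 ± 1.35 and 23.4 ± 2.57 FPKM (SD, n = 3). The level of ems was 26.4, 28.9 and 26.8 FPKM in WT, 28.3, 27, 29 and 25.2 in SppsKO, and 24.6, 28.6 and 30.7 in PhoKO. The level of E5 was 24.4, 25.4 and 20.5 in WT, 25.2, 24.7, 25.9 and 26.9 in SppsKO, and 19.2, 21.7 and 23.2 in PhoKO. Neither was called, although the SppsKO and PhoKO libraries of E5 did not overlap (log2 fold change -0.26, SE 0.08, limma adjusted p = 0.0582). That difference was called without WT 2, WT 3, PhoKO 3 or both shallow libraries, and with only the compared groups fitted. The head gene oc, which is also needed for the ocelli, ranged from 5.18 to 6.33 FPKM over all libraries, and under quantile normalization it was called higher in SppsKO than in WT and lower in PhoKO than in SppsKO, the latter also without the trend and robust options of limma.

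Brain genes of the paired-like group otp, Rx and hbn lie close together on chromosome arm 2R and were all expressed. In WT hbn stood at 8.08, 8.93 and 8.6 FPKM, Rx at 3.68, 3.44 and 3.55, and otp at 3.17, 2.76 and 3.17, so that the WT mean of hbn was 2.4 times that of Rx and 2.82 times that of otp. In SppsKO hbn was 9.54, 10.2, 10.3 and 9.15, above every WT library (log2 fold change 0.18, SE 0.06, limma adjusted p = 0.0855), while Rx was 3.94, 4.25, 3.54 and 3.56 and otp 2.63, 2.58, 2.87 and 2.21. In PhoKO hbn was 9.51, 8.9 and 9.43, Rx 4.41, 4.12 and 3.34, and otp 3.4, 2.96 and 2.65. None of the 3 genes was called in any comparison; under quantile normalization hbn was called higher in SppsKO. The other brain and neuron genes that were tested but not called are given by their range over all libraries. The genes bsh and acj6, which specify identified neuron types, ranged from 2.22 to 3.13 and from 1.91 to 2.89 FPKM. Ptx1 ranged from 2.17 to 3.1 FPKM and Hmx from 4.61 to 6.5. The LIM genes Awh and Lim3 ranged from 4.7 to 5.59 and from 7.26 to 8.63 FPKM, and the neuronal gene onecut from 23.3 to 32. Over these 7 genes no group stood apart from WT except PhoKO for Awh, at 4.86 to 5.13 FPKM against 5.2 to 5.51 in WT. The SppsKO and PhoKO libraries did not overlap with each other for Hmx and Ptx1, which were higher in PhoKO and not called. The gene ct, of external sensory organs and wing margin, ranged from 15.1 to 16.2 FPKM in WT, from 10 to 15.3 in SppsKO and from 12.7 to 13.6 in PhoKO, where every library lay below every WT library and the difference was not called.

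SppsKO 4 was often at an extreme of its group, for these genes and over all tested genes. It was the lowest of the 4 SppsKO libraries in 20 of the 32 tested genes, or 62.5%, and for 32.3% of all tested genes. It was the highest for 12.5% of the tested genes of the list and for 41.4% of all tested genes. For ct it stood at 10 FPKM, with 14 to 15.3 in the other SppsKO libraries. Without SppsKO 4 the called genes were the same 3 in SppsKO versus WT and the same 6 in the direct comparison.

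Other homeobox genes, a list of 55 with the Hox and eye genes of which 44 were tested, gave 4 calls in SppsKO (gsb and pdm2 higher, ap and ro lower) and 9 in PhoKO (5 higher, 4 lower). The share in SppsKO was 9.09%, beside 8.18% of all tested genes. The share in PhoKO was 20.5%, beside 9.66% of all tested genes and 6.25% of the genes described here. In the direct comparison 13 were called, or 29.5%, beside 14.4% of all tested genes and 18.8% of the genes described here. Differences between these shares were not tested. Of these 55 genes, 10 were silent in WT, and all 10 stayed silent in every library of both mutants. In PhoKO the 5 that rose (eyg, ro, so, repo and Optix) had log2 fold changes between 0.27 and 0.42, and the 4 that fell (gsb-n, gsb, dve and Lim1) between -0.49 and -0.24.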

How the data were processed

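The authors deposited 1 FPKM value per gene and library, already normalized across libraries. A stranded mRNA kit was used, per the labels' protocols, with libraries pooled for paired-end sequencing; the protocols speak of 12 libraries, of which 10 were analysed here, and the 42 ChIP-Seq samples were not used here. Per the submitters' processing notes, the series used DESeq2, HTSeq, Cuffnorm, Cufflinks, TopHat2 2.1.1, MACS2 2.1.1, SICER 1.1, SAMtools, Bowtie 1.1.2 and Trim Galore with builds dm3 and BDGP5; which of them made these values, and the strand setting of the counting, is not given in the sources used here. Overlapping genes on opposite strands and close copies can therefore share fragments.

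The groups follow the sample titles. Genes with 1 FPKM or more in at least 3 libraries were tested (9748 of 16502; 32 of the 42), on log2(FPKM + 1) with limma 3.58.1 (R 4.3.3), whose eBayes step used its trend and robust options, all libraries in 1 model and no covariate. Adjusted p-values are Benjamini-Hochberg over all tested genes within a comparison. The comparisons of SppsKO and PhoKO with WT share the WT libraries and are not independent. Overlap of groups is described for single genes, and the share of all tested genes whose groups did not overlap is not given here. A lack of overlap is therefore not read as a change where a gene was not called. Values in every library are given for genes called in a comparison, crossing 1 FPKM, highest in WT, nearest 1 FPKM or lying beside a close paralog; ranges serve for the rest. The genes and lists were chosen with earlier results of these data known. Gene order and chromosome arms are from the Release 6 plus ISO1 MT assembly, which matched all 42 symbols and was used only for names and neighbours. No sequences were used here.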

Additional observations from a re-analysis of the deposited data

Results flagged for a closer look

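A single library stood far from the rest of its group. For tin, SppsKO 3 had 0.311 FPKM and the other SppsKO libraries lay between 0.184 and 0.198, so that the gap to the nearest was 0.885 of the whole range, above Dixon's 95% critical value for 4 samples. The check was made for 42 genes in the 4 SppsKO libraries, and chance flags about 1 in 20 such groups.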

How the results depend on the processing

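Calls of vis and PHDP in SppsKO versus WT and in PhoKO versus SppsKO were kept under each of the 19 alternatives in which they were tested, and no call of a named gene changed direction. The number of genes called in SppsKO versus WT (3) was 2 to 4 with a library left out and 0 with a filter of a mean of 5 FPKM, which removes vis, PHDP and unpg from the test (6 at an unadjusted p under 0.05 by limma). In PhoKO versus WT (2) it was 0 to 4 with a library left out, 1 with the filter of a mean of 5 FPKM, and 0 with only the compared groups fitted, without both shallow libraries, or with the replicate block (5, 8 and 5 at an unadjusted p under 0.05); the cause was not tested. In the direct comparison (6) it was 6 to 8 with a library left out. Other homeobox genes numbered 2 to 5 (SppsKO, 4), 6 to 10 (PhoKO, 9) and 9 to 15 (direct, 13) with a library left out, and 5 in PhoKO with only the compared groups fitted. All tested genes called numbered 506 to 838 (797), 554 to 1112 (942) and 829 to 1671 (1400) with a library left out. In PhoKO versus WT they numbered 471 with only the compared groups, 627 without both shallow libraries and 670 with the replicate block. At an unadjusted p under 0.05 by limma these were 2042 of 9748, 2075 of 9594 and 2287 of 9748 tested genes. With the filter of a mean of 5 FPKM, 576 of 7879 tested genes were called in SppsKO versus WT and 704 in PhoKO versus WT. Under that filter 1831 genes had an unadjusted p under 0.05 by limma in SppsKO versus WT. At a threshold of 0.5 FPKM, 5 genes were silent in WT, of which 4 stayed so in SppsKO and 3 in PhoKO; at 1 FPKM these were 10, 10 and 9, and 10, 10 and 9 to 10 with a library left out.

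Replicate numbers did not pair the libraries: correlations of deviations ran from -0.377 to 0.11 for equal numbers, and 0 of 9 libraries correlated best with their own number. With the replicate block 449 genes were called in SppsKO versus WT and 753 in PhoKO versus SppsKO, 2 of the other homeobox genes were called in SppsKO, and the calls of unpg in SppsKO and of NK7.1 and Vsx1 against WT and of NK7.1 in the direct comparison (adjusted p = 0.0585) were not made. Depth is unknown in total, and values under 1 FPKM rest on few fragments.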
